A study of Mus musculus with 39 samples.

Results

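The 65 genes described here carry symbols that begin with Cfap, Dnah, Dnaaf, Rsph or Drc followed by a digit, out of 32245 gene symbols in the single-cell files. They comprise 33 Cfap genes (cilia and flagella associated proteins), 16 Dnah genes (15 axonemal dynein heavy chains and the antisense gene Dnah2os), 5 Dnaaf genes (dynein axonemal assembly factors), 8 Rsph genes (radial spoke head and stalk proteins) and 3 Drc genes (subunits of the nexin-dynein regulatory complex). The rule that selects the genes reads names alone, and the rule itself was set with earlier results of these data known. All 65 had at least 1 UMI (a unique molecular identifier, which counts an RNA molecule once) in both libraries, and 62 had at least 50 UMIs over the germ-cell stages. Those below that minimum were Dnah11, Rsph4a and Dnah2os.

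The axoneme is the microtubule core of the sperm tail and of motile cilia, a ring of doublet microtubules around a central pair. Outer and inner dynein arms on the doublets generate the sliding force, radial spokes pass signals from the central pair to the arms, and the nexin-dynein regulatory complex ties neighbouring doublets together and limits their sliding. Dynein arms are preassembled in the cytoplasm with the help of dedicated assembly factors. In the testis the tail is built after meiosis, in round and elongating spermatids, and transcripts of many tail proteins already accumulate in meiotic cells.

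Whole testes of Kdm6a fl/y mice were dissociated with enzymes, and a droplet 3′ single-cell library was made for 1 control without Cre and 1 conditional knockout (cKO) that carried Ddx4-Cre, a recombinase driven by a germ-cell gene. Kdm6a, an X-linked histone demethylase gene, is thus floxed in both groups and recombined only in the germ line of the cKO. Ages and the number of animals behind each library are not in the labels. Open chromatin (ATAC-seq) and the histone mark H3K27me3 (CUT&Tag) came from sorted cKIT+ spermatogonia of the same genotypes, with 2 control and 3 cKO libraries each.

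Among 11252 control and 8520 cKO barcodes with at least 3000 UMIs, the median was 8410.5 and 8499 UMIs. These barcodes held 57.8% and 57.5% of all UMIs, and 30 barcodes occurred in both libraries. Stages were assigned by marker genes, none of them a member. The gates held 290 control and 239 cKO spermatogonia, 1152 and 736 early spermatocytes, 1500 and 1094 late spermatocytes, 1717 and 1701 round spermatids, and 4466 and 3269 elongating spermatids. The early gate also held Piwil1, a pachytene gene, at 607 CPM (UMIs of a gene scaled to a common total per gate) in the control and 873 CPM in the cKO. Stra8, which marks entry into meiosis, stood there at 88.7 and 29.2 CPM. Kdm6a itself was at 17.1 CPM in control and 7.19 CPM in cKO spermatogonia, at 15.7 and 1.61 CPM in early spermatocytes, and at 7.15 and 13.4 CPM in Sertoli-gated cells, which Ddx4-Cre does not target. Free RNA, defined below, held 10.8 and 14.4 CPM of it. With 1 library per genotype no spread between animals exists, so library differences are given with no test, and all intervals cover counting error only.

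RNA that leaked from broken cells is part of every droplet. Its profile was read from droplets with 10 to 100 UMIs and is called free RNA below. The 65 genes summed to 4323 CPM of free RNA in the control and 3899 CPM in the cKO. A member at or below its free RNA level in a gate is treated below as not distinguished from this background. That level is a mark and not the measured share of free RNA in a gate, which differed by gene. Hbb-bs, a blood cell marker, was at 458 CPM in control free RNA and at 0.781 CPM in control late spermatocytes. Protamine genes in the Leydig gate stood at 0.758 of their free RNA level in the control and 0.625 in the cKO.

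RFX transcription factors, which drive many motile-cilium genes, bind a paired site made of the hexamer GTTGCC and its reverse complement GGCAAC, and each hexamer alone is only part of such a site. Promoter windows from 250 bases before to 50 bases after the start site were taken from RefSeq (GRCm38.p6) for 52 of the 65 members. Cfap157, Cfap299, Cfap53, Cfap54, Cfap65, Cfap73, Cfap97, Dnaaf1, Dnah2os, Dnah3, Rsph1, Rsph10b and Rsph4a had no entry. A single hexamer, on either strand, was present in 19 of 52 windows (36.5%, exact 95% binomial interval 23.6 to 51.0%) and in 14.2% of all 20267 promoter windows. The pair, both forms with 0 to 2 bases between them, was found in 1 member window, that of Cfap298 (1.92%, against 0.178% of all windows). A match is a description of these letters and not a bound site. The stretches upstream of Cfap298 (chr16:90934850-90935099, minus strand) and Cfap161 (chr7:83794840-83795089, minus strand) are shown because they hold the most copies, 4 and 3. Both read 5′ to 3′ toward the start site, with hexamers in capitals.
Cfap298: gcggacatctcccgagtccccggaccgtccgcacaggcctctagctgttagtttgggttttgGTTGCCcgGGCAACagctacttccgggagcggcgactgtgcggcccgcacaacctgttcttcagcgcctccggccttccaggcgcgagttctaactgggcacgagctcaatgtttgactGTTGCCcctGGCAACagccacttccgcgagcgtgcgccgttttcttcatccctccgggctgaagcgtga
Cfap161: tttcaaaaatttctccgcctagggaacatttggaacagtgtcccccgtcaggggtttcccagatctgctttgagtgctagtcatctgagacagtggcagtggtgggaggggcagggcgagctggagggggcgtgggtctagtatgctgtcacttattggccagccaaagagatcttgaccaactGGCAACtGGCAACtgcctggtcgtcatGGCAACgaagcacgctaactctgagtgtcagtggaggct
Cfap298, a dynein assembly protein gene, carries a pair that begins 188 bases before the start and a second pair, with 3 bases between the forms, that begins 69 bases before it. In Cfap161 the copies begin 66, 59 and 39 bases before the start. Both genes were highest in late spermatocytes, with Cfap298 at 760.0 CPM in the control library and 758 CPM in the cKO library, and Cfap161 at 186 and 199.8 CPM. These levels stood at more than 3 times free RNA, which was 196 and 179 CPM for Cfap298 and 52.6 and 45.2 CPM for Cfap161.

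The dynein heavy chains Dnah7a, Dnah7b and Dnah7c lie on chromosome 1 and are near-identical copies, so reads may be split or lost between them and their separate counts are uncertain. They are shown because each holds 1 hexamer in a similar stretch of its promoter, within chr1:53706915-53707014 (minus strand), chr1:46066660-46066759 (plus strand) and chr1:46425269-46425368 (plus strand).
Dnah7a: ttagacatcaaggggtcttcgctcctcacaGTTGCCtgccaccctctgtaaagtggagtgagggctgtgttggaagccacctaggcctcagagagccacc
Dnah7b: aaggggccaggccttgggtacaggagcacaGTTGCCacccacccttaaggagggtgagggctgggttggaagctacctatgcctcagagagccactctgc
Dnah7c: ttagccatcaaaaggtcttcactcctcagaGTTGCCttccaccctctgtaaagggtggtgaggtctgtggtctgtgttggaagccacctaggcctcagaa
The hexamer, in capitals, begins 200, 163 and 219 bases before the start in Dnah7a, Dnah7b and Dnah7c. By family, the single hexamer was found in 10 of 26 Cfap, 4 of 14 Dnah, 3 of 4 Dnaaf, 1 of 5 Rsph and 1 of 3 Drc promoters. It was found in 10 of 27 promoters of members highest in late spermatocytes and in 2 of 15 of those highest in round spermatids (13.3%), beside 14.2% of all promoters.

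The members made up 0.939% of control UMIs and 0.870% of cKO UMIs. Their summed level followed the same course in both libraries. In the control it was 3700 CPM in spermatogonia, 8362 CPM in early spermatocytes, 16535 CPM in late spermatocytes, 9064 CPM in round spermatids and 3103 CPM in elongating spermatids. In the cKO library the same sums were 2776, 8734, 15071, 8912 and 2618 CPM. Spermatogonia and elongating spermatids thus lay below the summed free RNA level, and the 3 stages between them above it. The log2 ratio of late spermatocytes over round spermatids was 0.87 in the control and 0.76 in the cKO library. Rsph1 gave the largest part of the late spermatocyte sum in both libraries.

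Of the 62 members with at least 50 UMIs, 35 had their highest level in late spermatocytes in both libraries, where 17.5% of all genes peaked, and 17 in round spermatids, against 19.4% of all genes. In the control library alone 38 members peaked in late spermatocytes (20.5% of all genes) and 19 in round spermatids (21.9%), 3 in early spermatocytes (17%), and 1 each in spermatogonia (30%) and elongating spermatids (10.7%). In the cKO library the counts were 35 (19.3%), 17 (21.5%), 7 (17.5%), 0 (30.1%) and 3 (11.6%). No member was highest in spermatogonia in both libraries, the place of 25.6% of all genes. Cfap410, Dnah7a and Dnah7b were highest in early spermatocytes in both (13.6% of all genes), and Rsph3b in elongating spermatids (9.87%). The peak lay in the same stage in both libraries for 56 of 62 members, against 86% of all genes. The exceptions were Cfap300, Cfap97d2 and Dnaaf4 (late in the control, early in the cKO), Cfap97d1 and Rsph10b (round, then elongating) and Dnaaf5 (spermatogonia, then early). Most of these were near ties in 1 library. The cKO peaks of Dnaaf4, Cfap97d1 and Rsph10b were 1.003, 1.005 and 1.03 times the next stage. The control peaks of Cfap300 and Dnaaf5 were each 1.05 times the next. Cfap97d2 was at 1.10 times in the control and 1.34 times in the cKO.

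**Figure D1:**
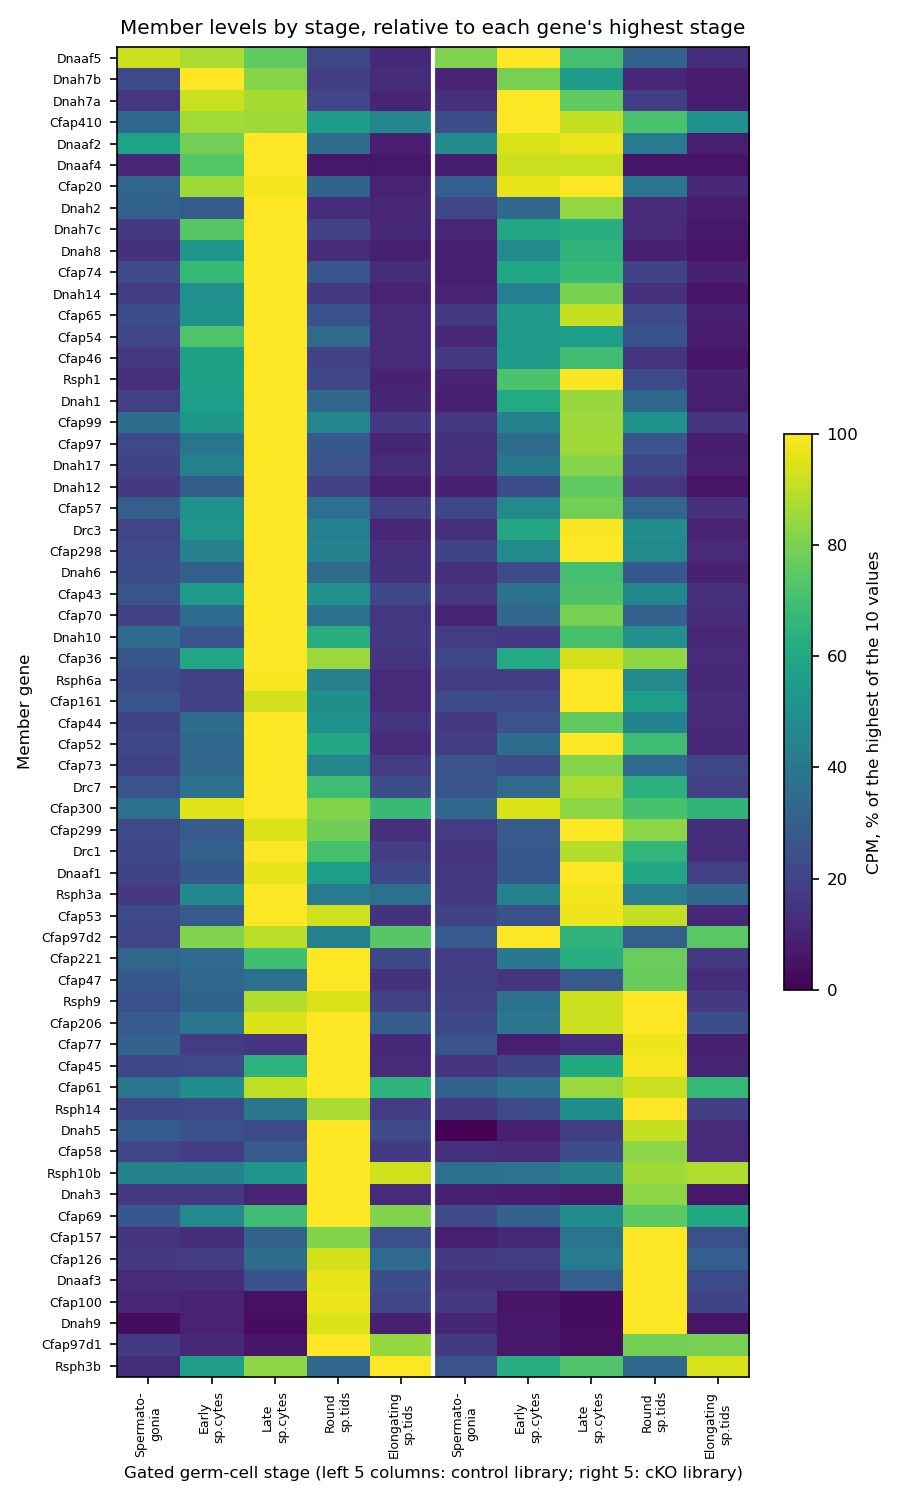
Level of the 62 members with at least 50 UMIs in each gated germ-cell stage (spermatogonia, early and late spermatocytes, round and elongating spermatids), as a percentage of the highest of each gene's 10 CPM values. The left 5 columns are the control library and the right 5 the cKO library. The block of 35 genes that peak in late spermatocytes in both libraries and the block of 17 that peak in round spermatids are visible on both sides.

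In late spermatocytes, 43 of 56 members with at least 10 free RNA UMIs exceeded 2 times their free RNA level in the control, against 26% of all genes, and 45 of 56 in the cKO (26.9%). In spermatogonia this held for 3 of 56 (28.2% of genes) and 2 of 56 (26.1%). In early spermatocytes it held for 21 of 56 (28.4%) and 25 of 56 (27.8%). In round spermatids it held for 28 of 56 (22.2%) and 32 of 56 (24.5%), and in elongating spermatids for 4 of 56 (11.2%) and 6 of 56 (11.5%). The median member stood at 3.64 times free RNA in control late spermatocytes and at 0.982 times in control spermatogonia.

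Among the dynein heavy chains, Dnah8 had the most UMIs. It encodes an outer-arm heavy chain of the sperm tail and spans chr17:30626935-30875762. Its level in the control was 228 CPM in spermatogonia, 804 CPM in early spermatocytes, 1542 CPM in late spermatocytes, 197 CPM in round spermatids and 136 CPM in elongating spermatids. In the cKO library the same values were 131, 735, 999.9, 143 and 84.9 CPM. Free RNA held Dnah8 at 186 CPM in the control and 193 CPM in the cKO, so only the 2 spermatocyte gates stood clearly above it in both libraries. After each cell was thinned to 3000 UMIs, 94.7% of control late spermatocytes (93.4 to 95.7%) and 88.0% of cKO late spermatocytes (85.95 to 89.9%) had a Dnah8 UMI. Without thinning the shares were 99.1% and 98.6%. In Leydig-gated cells, a somatic type without a motile axoneme, the share was 35.0% and 32.7% thinned, and 65.0% and 50.5% without. Median depth before thinning was 22361 and 20152.5 UMIs in late spermatocytes and 7823 and 6705 UMIs in Leydig-gated cells.

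Dnah17, the partner outer-arm heavy chain of sperm, was at 186 CPM in control and 153 CPM in cKO late spermatocytes. Dnah14 reached 323 and 258 CPM there, and Dnah12, a single-headed inner-arm chain, 199 and 151 CPM. All of these were lower in each later stage, with Dnah17 at 49.1 and 40.5 CPM in round spermatids and at 23.4 and 15.8 CPM in elongating spermatids. Dnah7a, an inner-arm chain, was at 126 and 119.9 CPM in early and late spermatocytes of the control, a ratio of 1.05, and at 138 and 104 CPM in those of the cKO library, a ratio of 1.32. Dnah7b was at 160.1 and 131 CPM in the control and at 127 and 88.0 CPM in the cKO.

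The outer-arm heavy chains known from motile cilia of the airway were scarce in late spermatocytes. Of these, Dnah9 and Dnah11 are named after their values were seen. Dnah5, the ciliary counterpart of Dnah8, was at 0.376 CPM in control and 0.303 CPM in cKO late spermatocytes and at 1.68 and 1.54 CPM in round spermatids, where it was highest. Dnah11 did not exceed 1.95 CPM in any germ-cell stage of either library. Dnah9 was at 0.984 and 1.04 CPM in late spermatocytes and at 29.4 and 31.2 CPM in round spermatids, against 6.19 and 7.95 CPM in free RNA. The Leydig gate held it at 27.9 and 13.8 CPM. Dnah3, an inner-arm chain also named after the fact, shared this peak, at 149 and 123 CPM in round and 14.4 and 9.48 CPM in late spermatocytes.

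Dnah2os had 13 UMIs in the control and 25 in the cKO, the fewest with Dnah11 and Rsph4a. In the control all of them and in the cKO 22 were in the Leydig gate, at 12.9 and 27.5 CPM. Dnah2, an inner-arm chain gene to which its name makes it antisense, was at 36.8 and 26.3 CPM in that gate and at 64.3 and 53.8 CPM in late spermatocytes. In late spermatocytes 2222 control UMIs of Dnah2 stood beside 0 of Dnah2os, and 1243 beside 1 in the cKO. No source used here says whether counting used strand. In late spermatocytes Dnah2 UMIs came with almost none of Dnah2os. Whether reads were shared in the Leydig gate, where both had UMIs, was not tested.

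Among the radial spoke genes, Rsph1, a spoke-head protein gene at chr17:31255019-31277296, gave the largest number of UMIs of any member in both libraries. Its control levels from spermatogonia to elongating spermatids were 578, 2393, 4175, 885 and 389.7 CPM. The cKO library gave 409, 2990, 4131, 937 and 365 CPM. Free RNA carried 893 and 862 CPM of Rsph1, so its level in round spermatids was near that of free RNA and in elongating spermatids below it. Thinned cells with an Rsph1 UMI made up 99.8% of control and 100% of cKO late spermatocytes, and 62.4% and 54.5% of Leydig-gated cells.

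Rsph9, another spoke-head gene, was at 236 and 246 CPM in late spermatocytes and at 253 and 267 CPM in round spermatids of control and cKO. Rsph6a, the sperm spoke-head gene related to Rsph4a, was highest in late spermatocytes with 176 and 178 CPM. Rsph4a, the form of motile cilia, stayed at or below 0.489 CPM in every germ-cell stage of both libraries. Rsph3a, a spoke-stalk gene, reached 106 and 104 CPM in late spermatocytes. Its near copy Rsph3b, whose reads may be shared with it, was instead highest in elongating spermatids with 33.2 and 31.2 CPM.

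The nexin-dynein regulatory complex genes Drc1, Drc3 and Drc7 shared a peak in late spermatocytes. Drc1 was at 161 CPM in the control and 143 CPM in the cKO there, Drc3 at 123 and 122 CPM, and Drc7 at 52.7 and 46.3 CPM. In spermatogonia none of them exceeded free RNA by more than a few CPM, with Drc1 at 34.7 and 24.2 CPM against 35.1 and 45.2 CPM in free RNA.

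The assembly factor genes were not alike. Dnaaf1 was highest in late spermatocytes with 1065 CPM in the control and 1104 CPM in the cKO, and stayed at 618 and 662 CPM in round spermatids. Dnaaf2 was already at 97.8 and 117 CPM in early spermatocytes and at 124 and 121 CPM in late ones. Dnaaf3 peaked later, at 168 and 174 CPM in round spermatids against 43.7 and 52.6 CPM in late spermatocytes. Free RNA held Dnaaf3 at 45.4 and 33.8 CPM, so its late spermatocyte level was under that of free RNA in the control and above it in the cKO.

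The Cfap genes divided between meiosis and the round spermatid. Cfap36, whose protein binds a ciliary small GTPase, was at 1443 and 1343 CPM in late spermatocytes and at 1226 and 1206 CPM in round spermatids. Cfap97 (927 and 793 CPM), Cfap298 and Cfap299 (318 and 336 CPM) also peaked in late spermatocytes. Cfap53, a protein of the doublet lumen, was at 311 and 304 CPM in late spermatocytes and 289 and 282 CPM in round spermatids, a ratio of 1.08 in the control.

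Cfap206, Cfap45 and Cfap69 peaked in round spermatids. Cfap206, a radial spoke docking protein gene, was at 697 and 696 CPM there and at 661 and 641 CPM in late spermatocytes. Cfap45, another protein of the doublet lumen, was at 714 and 708 CPM in round and 462 and 434 CPM in late spermatocytes. Cfap69, needed for sperm tail assembly, was at 295 and 221 CPM in round spermatids and still at 239 and 179 CPM in elongating spermatids, against 72.7 and 75.0 CPM in free RNA. Cfap410 ran from 14.2 CPM in spermatogonia to 36.0 CPM in early spermatocytes in the control and from 9.80 to 41.8 CPM in the cKO library. Its early level was only 1.005 times that of the next highest stage in the control, and 1.10 times in the cKO. Free RNA held 19.1 and 25.8 CPM of Cfap410, above the spermatogonia values. Cfap73, with 2.55 and 2.08 CPM in late spermatocytes, had 88 and 48 UMIs there.

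**Figure D2:**
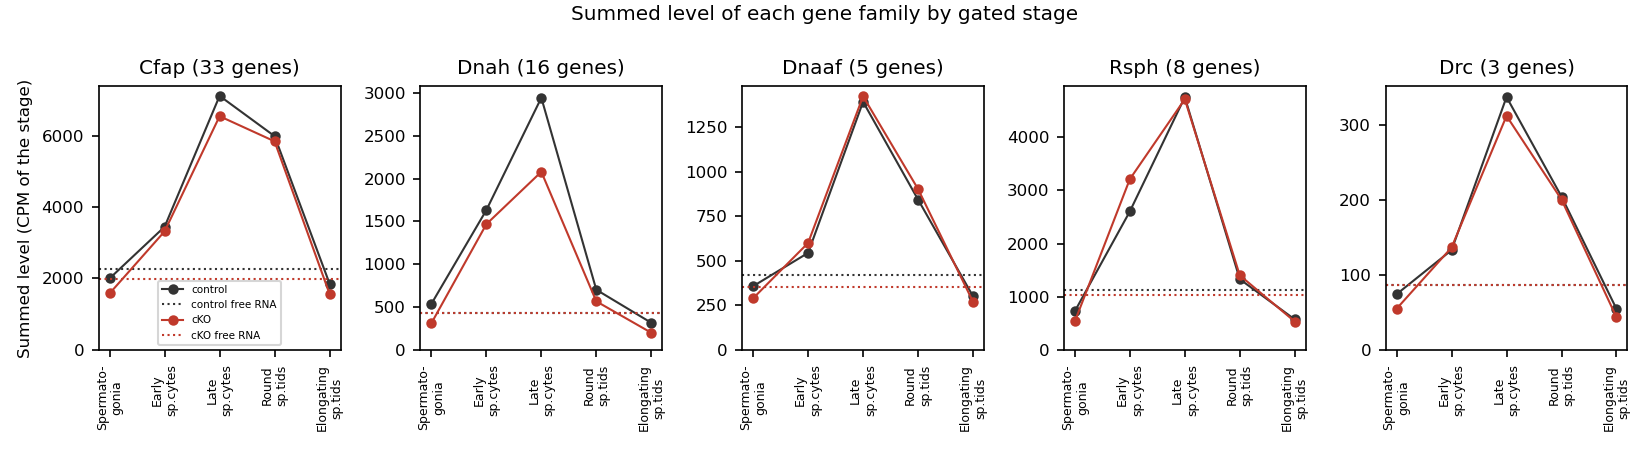
Summed level of each gene family (CPM of the gate) in the 5 germ-cell gates of the control library (dark) and the cKO library (red). Dotted lines give the same sum in free RNA of each library. Every family sum is highest in late spermatocytes, and the libraries lie farthest apart there for Dnah, at 2943 CPM in the control and 2079 CPM in the cKO. Sums lean on the highest genes of a family. By gene, 3 of 7 measured Rsph genes peaked in late spermatocytes in both libraries.

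Between the libraries, most members stood below 0 on the log2 scale of cKO over control, mostly by less than 1.5-fold. In late spermatocytes 49 of 61 measured members were below 0, with a median of -0.20 beside -0.04 over all other genes. Of the other genes with a known genomic span 57.4% were below 0, and the shares in parentheses that follow are of such genes too. In round spermatids it was 39 of 62 with a median of -0.11 beside 0.00 (50.0%), and in early spermatocytes 34 of 59 with -0.08 beside -0.13 (63.2%). In spermatogonia it was 40 of 46 with -0.39 beside -0.09 (60.4%), and in elongating spermatids 52 of 60 with -0.28 beside -0.12 (67.4%). Past 1.5-fold the counts were smaller. In late spermatocytes 5 of the 61 members with at least 50 UMIs were lower in the cKO library past 1.5-fold and 0 were higher. Of all genes, 6.21% were lower and 1.07% higher there. In round spermatids 2 of 62 were lower (8.37% of all genes) and 0 higher (1.64%), and in early spermatocytes 7 of 59 were lower (16.4%) and 0 higher (1.44%). Past this fold, the share of members lower in late spermatocytes was near that of all genes, and in the round spermatid and early spermatocyte gates below it. In spermatogonia 13 of 46 were lower (8.73%) and 1 was higher (1.83%), and in elongating spermatids 12 of 60 were lower (8.45%) and 0 higher (0.894%). In spermatogonia and elongating spermatids most of these genes stood near or below free RNA. The gates differ in makeup between the libraries. In the early gate this shows in the Stra8 and Piwil1 levels, while Mybl1 and Nek2, other late spermatocyte markers, were lower in the cKO library. The late spermatocyte markers summed to 3952 and 4183 CPM there. In the late gate the same markers summed to 5509 and 5236 CPM, with single markers going both ways. Nek2 was at 271 and 184 CPM there and Mybl1 at 114 and 84.1 CPM. Ccna1 was at 198 and 230 CPM and Aurka at 276 and 311 CPM in that gate. In the round gate the elongating spermatid markers summed to 32621 and 23304 CPM, and in the elongating gate to 223163 and 241561 CPM. Among them Akap4, a gene of the fibrous sheath of the tail, was at 646 and 435 CPM in the round gate. In the elongating gate Akap4 was at 2179 and 1458 CPM, against the direction of the sum. The part of these differences in the member values was not tested.

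Among the families, the dynein heavy chains had the lowest ratio of summed levels in late spermatocytes. Their sum was 2943 CPM in the control and 2079 CPM in the cKO library, a log2 ratio of -0.50 (95% counting interval -0.52 to -0.49). The Rsph genes summed to 4750 and 4713 CPM (-0.01), the Dnaaf genes to 1394 and 1425 CPM (0.03), the Drc genes to 337 and 312 CPM (-0.11), and the Cfap genes to 7110 and 6542 CPM (-0.12). Rsph1 made up most of the Rsph sum, Dnaaf1 most of the Dnaaf sum, and Dnah8 was the largest part of the Dnah sum. By gene, 12 of 13 measured Dnah genes were lower in the cKO library, with a median log2 ratio of -0.40, beside -0.04 over all other genes. Of 12267 other genes with a known span 57.4% were lower, as were 1069 of the 1422 that span over 100 kb, the span of 12 of these 13 Dnah genes. In elongating spermatids all 13 measured Dnah genes were lower, 9 of them past 1.5-fold, with a median of -0.67 beside -0.12 over all other genes. Of 12088 other genes 67.4% were lower there, as were 1158 of the 1460 over 100 kb, of which 14.7% passed 1.5-fold. Their sum there, 317 and 200.3 CPM, lay below the 429 and 427 CPM of free RNA. In spermatogonia all 11 measured Dnah genes were lower, 8 past 1.5-fold, with a median of -0.81 beside -0.09 over all other genes. Their sums were 537 and 312 CPM (-0.79), the cKO sum below free RNA. Of other genes with a known span 60.4% were lower there, as were 729 of the 933 over 100 kb, of which 14.9% passed 1.5-fold. In early spermatocytes 9 of 12 were lower, with sums of 1632 and 1468 CPM (-0.15). Of other genes 63.2% were lower there, as were 963 of the 1216 over 100 kb. In round spermatids 12 of 14 were lower, with 702 and 567 CPM (-0.31). Of other genes 50.0% were lower there, as were 1076 of the 1610 over 100 kb.

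Dnah8 was at 1542 CPM in control and 999.9 CPM in cKO late spermatocytes, a log2 ratio of -0.62 (-0.65 to -0.60), from 53272 and 23101 UMIs. The ratio was -0.80 in spermatogonia, -0.46 in round spermatids, -0.67 in elongating spermatids and -0.13 in early spermatocytes. Within finer clusters of similar cells, an alternative added after the data were seen, Dnah8 was lower in the cKO library in all 17 germ-cell clusters, by log2 ratios from -0.99 to -0.28. In 9 of them its level was above free RNA in both libraries, with the same range of ratios, and in the other 8 it was at or below free RNA in at least 1 library. In 16 of these 17 clusters the median member also lay below the median of all genes, the exception being a cluster at 0.08 beside -0.06. The clusters divide the same 2 libraries and are not separate observations. How many other genes were lower in all of them was not counted. In the Sertoli gate, a somatic type that Ddx4-Cre does not target and which also held Prm1, an elongating spermatid gene, at 25939 and 24362 CPM, Dnah8 was at 310.03 and 183 CPM. In the Leydig gate, likewise not targeted, it was at 166 and 218 CPM, and the Dnah genes summed to 457 and 494 CPM (0.11, -0.08 to 0.31). In the Sertoli gate they summed to 678 and 456 CPM (-0.57, -0.69 to -0.45), with 10 of 11 measured Dnah genes lower. Of other genes with a known span 50.5% were lower there, as were 548 of the 991 over 100 kb. In free RNA Dnah8 was not lower, at 186 and 193 CPM. Rsph1, with 144277 and 95437 UMIs in late spermatocytes, had a ratio of -0.02 there, which became 0.02 when the libraries were scaled by the median ratio over genes.

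**Figure D3:**
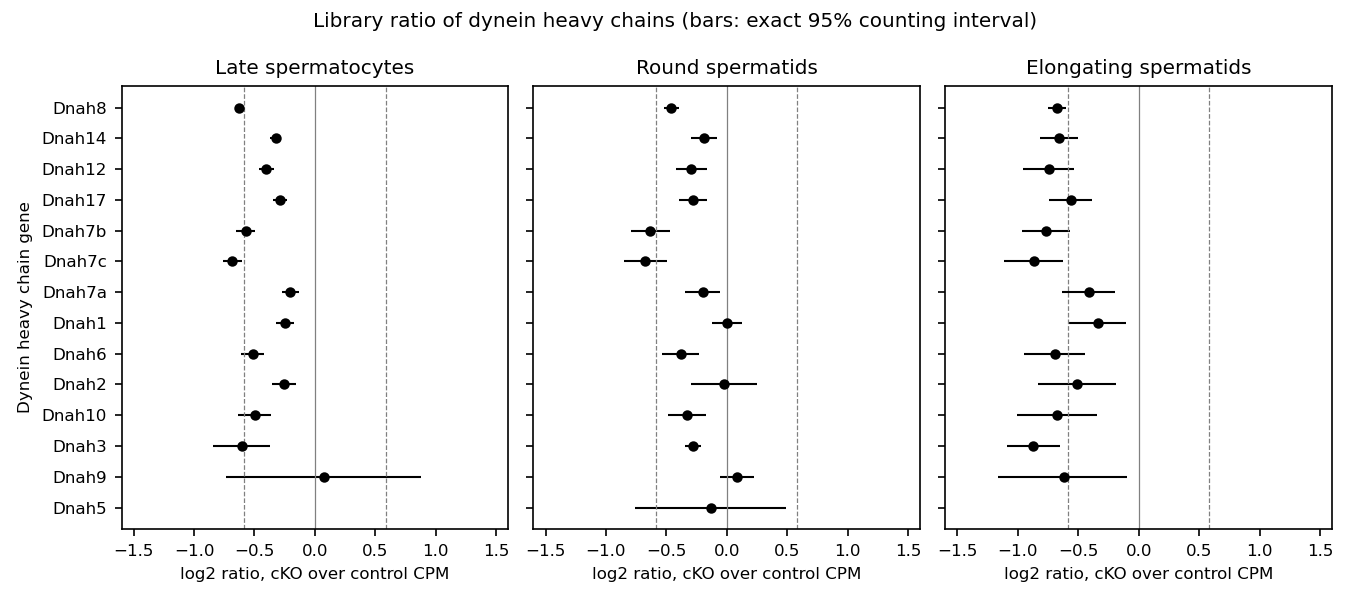
Log2 ratio of cKO over control CPM for 14 dynein heavy chain genes in late spermatocytes, round spermatids and elongating spermatids, where at least 50 UMIs were counted. Points are ratios, bars exact 95% counting intervals, and dashed lines 1.5-fold. Points lie left of 0 for 12 of 13 genes in late spermatocytes and for all 13 in elongating spermatids.

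The other members lower in late spermatocytes past 1.5-fold were Dnah7c, Dnah3, Cfap54 and Cfap97d1. Dnah3, at 14.4 and 9.48 CPM, was under its free RNA level of 16.0 and 10.4 CPM. Cfap97d1, linked to upkeep of the sperm axoneme, was at 20.8 and 12.7 CPM, under its free RNA level of 111 and 88.4 CPM, and at 342 and 271 CPM in round spermatids. Cfap54, a central apparatus gene chosen after its values were seen, was at 79.7 and 44.4 CPM (-0.85, -0.95 to -0.74). Dnah7c was at 123 and 76.4 CPM (-0.68), while its copies Dnah7b (-0.57) and Dnah7a (-0.20) were within 1.5-fold.

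Other Cfap genes passed 1.5-fold only in stages other than late spermatocytes. Cfap43, needed for the sperm tail, was at 189 and 136 CPM in late spermatocytes (-0.47) and at 40.9 and 25.9 CPM in elongating spermatids (-0.66), where free RNA held 38.7 and 34.3 CPM. It also passed the fold in spermatogonia, at 49.3 and 31.4 CPM (-0.65). Cfap70, an outer-arm associated gene, was at 179.7 and 143 CPM in late spermatocytes (-0.33) and at 35.2 and 18.3 CPM in spermatogonia. Cfap58, which takes part in tail assembly, was at 165 and 136 CPM in round spermatids (-0.28) and passed the fold only in early spermatocytes, at 30.2 and 19.9 CPM. Where Cfap43, Cfap70 and Cfap58 passed 1.5-fold, their cKO level was under free RNA. Cfap47, named after its values were seen, was at 7.07 and 3.23 CPM in early spermatocytes (-1.13), above its free RNA level of 4.13 and 2.98 CPM in both libraries.

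The size of the library difference followed the genomic span of the gene, its length from first to last annotated base with introns. In late spermatocytes the median log2 ratio of members was 0.04 under 10 kb (6 genes), -0.03 from 10 to 30 kb (14 genes), -0.21 from 30 to 100 kb (23 genes) and -0.42 over 100 kb (17 genes). All other genes showed the same order with smaller values at the long end, 0.05, -0.02, -0.16 and -0.21. Across 60 members Spearman's rho between span and ratio was -0.49, and across 12267 other genes -0.29, as descriptions over genes of the same 2 libraries. The Dnah genes are long, and 12 of 13 measured there span over 100 kb, so family and span are not separated in these counts. In elongating spermatids the medians over 100 kb were -0.66 for 17 members and -0.25 for other genes.

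In free RNA this order was not seen, and among other genes it ran the other way. There the median member was at -0.17 under 10 kb and at -0.12 over 100 kb. Other genes were at -0.09, -0.05, 0.01 and 0.02 from the shortest to the longest span (rho 0.15 across 7666 genes). In the somatic Leydig gate the order was present among other genes, with medians of 0.14, 0.04, -0.16 and -0.30 from the shortest to the longest span, while the members were at -0.03 (2 genes), 0.40 (10 genes), 0.19 (7 genes) and 0.23 (6 genes). In the Sertoli gate other genes were at 0.07, 0.01, -0.08 and -0.05, and members at -0.07, -0.10, -0.34 and -0.39. Malat1, a nuclear RNA, was at 626 CPM in control and 541 CPM in cKO late spermatocytes, at 222 and 170.4 CPM in elongating spermatids, at 40698 and 30284 CPM in the Leydig gate, at 2582 and 3385 CPM in the Sertoli gate, and at 6358 and 6928 CPM in free RNA. What the span relation reflects was not tested.

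**Figure D4:**
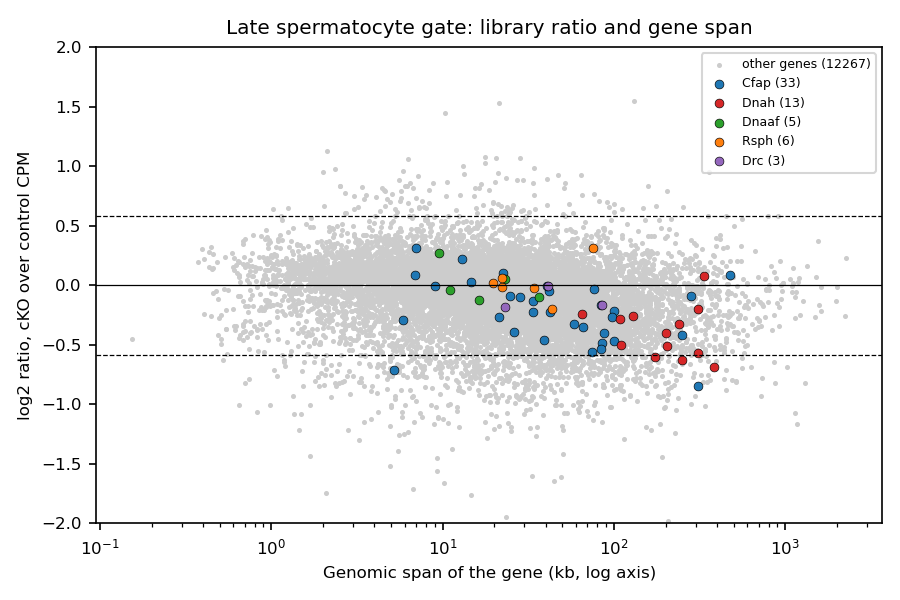
Log2 ratio of cKO over control CPM in late spermatocytes against the genomic span of each gene in kb (log axis), for 60 members coloured by family and 12267 other genes in grey. Dashed lines mark 1.5-fold, and 4 other genes lie outside the plotted range. Members over 100 kb, mostly Dnah, lie lowest, with a median of -0.42.

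Other genes of the same structures, from lists set apart from the members, also peaked mostly in late spermatocytes and round spermatids, where 17.5% and 19.4% of all genes peaked in both libraries. In both libraries 7 of 15 other dynein arm subunit genes peaked in late and 5 in round spermatids, among them Dnali1, an inner-arm light chain gene, at 357 CPM in the control and 366 CPM in the cKO in round spermatids. Of 9 further nexin-dynein and ruler genes, 6 peaked in late and 3 in round spermatids. Ccdc39, which sets the axonemal repeat, was at 519.6 and 391 CPM in late spermatocytes. Of 18 other spoke and central apparatus genes, 8 peaked in late and 7 in round spermatids, and of 9 other assembly factor genes 7 and 1, with Zmynd10 at 395 and 459 CPM in late spermatocytes. Of 16 tubulin, inner-junction and tektin genes, 5 and 9 did.

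None of the genes measured in these lists passed 1.5-fold in late spermatocytes, and the lists' median log2 ratios lay between -0.17 for the nexin-dynein and ruler genes and 0.10 for the tubulin and inner-junction genes. In spermatogonia, where 8.73% of all genes were lower past 1.5-fold, 5 of 8 measured nexin-dynein and ruler genes (median -0.63) and 5 of 17 spoke and central apparatus genes (-0.41) were lower, as were 2 of 13 dynein arm, 1 of 8 assembly and 1 of 15 tubulin genes and 3 of 7 regulators. In elongating spermatids (8.45% of all genes) 2 of 9 nexin-dynein and ruler genes, 2 of 9 assembly factor genes, 1 of 18 spoke genes and 1 of 10 regulators were lower. In early spermatocytes (16.4%) 2 of 15 dynein arm, 2 of 9 nexin-dynein and ruler and 1 of 16 tubulin genes and 2 of 10 regulators were lower, and in round spermatids (8.37%) 1 of 16 tubulin genes. None of these genes was higher past the fold in any germ-cell stage. Of the transcription regulators, Rfx2, a driver of spermatid tail genes, peaked in late spermatocytes at 102 and 99.8 CPM. Foxj1, the regulator of motile cilia, peaked in round spermatids at 40.1 and 43.2 CPM, while Mcidas, Gmnc, Trp73 and Myb had too few UMIs. Markers of the ciliated epithelium of the ducts, 11 genes, summed to 39.7 to 224 CPM over the germ-cell gates in the control, with 1 to 4 of them at 0, and to 37.8 to 173 CPM in the cKO, with 2 to 4 at 0. The highest sums were those of spermatogonia, where Epcam alone was at 192 and 148 CPM. Free RNA held 159.9 and 158 CPM of these 11 genes, and their part in the member levels was not tested.

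Chromatin at the promoters was compared in cKIT+ spermatogonia, an earlier cell than those in which most members peak. The share of the 52 member promoters that overlapped a deposited ATAC region was 55.8% and 76.9% in the control libraries, and 28.8%, 44.2% and 76.9% in the cKO libraries. Over all genes the same shares were 41% and 49.9%, and 31.8%, 38.7% and 52.8%. The groups overlap, and the share was higher in libraries with longer lists, which ran from 14635 to 40497 regions. Means were 66.3% ± 15.0 (SD, n = 2) and 50.0% ± 24.6 (SD, n = 3), a difference of -16.3 percentage points (two-sided exact permutation p = 0.5). It was -5.77 points without cKO 1 or without control 2, -26.9 without control 1 and -29.8 without cKO 3. The smallest p the 10 splits allow is 0.1. Of the 52 promoters, 12 lay in a region in all 5 libraries (29.7% of all genes did) and 12 in none (44.9%), and Dnah8, Dnah17 and Dnah12 were among the latter. None was open in both controls and in no cKO library (0.0691% of all genes), and none in all 3 cKO libraries and no control (0.00987%).

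H3K27me3, the mark that KDM6A removes, was rare at these promoters and over all genes. In each of the 5 libraries the share of member promoters lay below that of all genes. These shares rest on 1 to 6 member promoters per library. The lowest came from the shortest list, that of cKO 1 with 11118 regions. The highest came from the longest, that of control 2 with 18494 regions. Regions overlapped 3.85% and 11.5% of member promoters in the control libraries and 1.92%, 3.85% and 9.62% in the cKO libraries, against 10.7%, 13.3%, 5.85%, 8.17% and 12.2% of all genes in the same order. The difference was -2.56 percentage points (7.69% ± 5.44, n = 2, and 5.13% ± 4.00, n = 3; SD; exact permutation p = 0.6), and it was 1.28 without control 2, -6.41 without control 1, -0.96 without cKO 1 and -4.81 without cKO 3. Dnah11, with almost no RNA in any germ-cell stage, was the single member marked in all 5 libraries, as were 4.12% of all genes. Of the 52 promoters 43 (82.7%) were in no H3K27me3 list, near the 83.4% of all genes. None was marked in both controls and in no cKO library (0.661%) or in all 3 cKO libraries and no control (0.00987%). No member promoter lay in a region of the IgG library (0.266% of all genes).

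**Figure D5:**
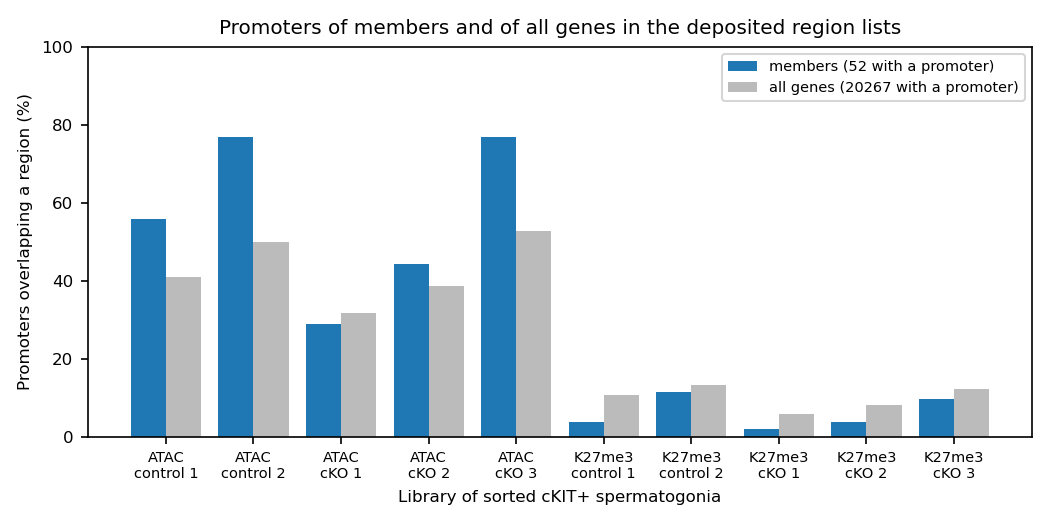
Percentage of promoter windows that overlap at least 1 deposited region in each ATAC-seq and H3K27me3 library of cKIT+ spermatogonia, for the 52 members with a promoter entry (blue) and for all 20267 genes with one (grey). ATAC shares of members range from 28.8 to 76.9% and H3K27me3 shares from 1.92 to 11.5%, and control and cKO libraries overlap in both.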

How the data were processed

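The deposited single-cell tables are raw UMI counts with no selection of cells. Per the file headers they came from Cell Ranger 4, and per the submitters' processing notes the build was mm10. Replicates of the other assays are separate samples by their labels, which do not say whether animals were pooled. The authors' ATAC lists give a fold enrichment (ratio), a -log10 p and q and a score per region. The deposited CUT&Tag lists give, as the authors made them, the summed and the highest signal of each region. MACS2 and SEACR are named per the submitters' processing notes, with no version. By name 4 of 5 H3K27me3 lists were downsampled. Only positions were used here.

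Barcodes needed 3000 UMIs. Each went to the marker list with the highest mean standardized log2(UMIs per 10000 + 1), if 0.2 above the next, else to no gate. UMIs were summed per gate and library, and CPM are of that sum. Genes needed 50 UMIs for peaks and for ratios. Intervals are exact (95%, Poisson or binomial). The floor set for a count of 0 was 3 counts, a fixed value and not the limit of these intervals. Scripts used Python 3.11.15, scipy 1.17.1 and scanpy 1.11.5 and were tested on simulated data. Libraries held 229882646 and 172368722 UMIs. Doublets were kept. Scrublet called 5.23% and 6.03%. Transcript-level bulk RNA was not used here.

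Members and lists were chosen with earlier results of these data known. Named genes were the top members of each family by mean CPM (8 Cfap, 6 Dnah, 3 Dnaaf, 4 Rsph, all Drc), up to 6 highest in spermatogonia or early spermatocytes, up to 8 past 1.5-fold with intervals off 0, and 3 with the largest somatic share. Any other member is named after its values were seen. The promoter region comparison was added after the data were seen. Alternatives were other UMI minimums, gates, scalings, doublet removal and free RNA subtraction.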

Additional observations from a re-analysis of the deposited data

How the results depend on the processing

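The counts of members that peak in late (35) and in round spermatids (17) lay between 31 and 38 and between 17 and 19 under every alternative run for them. The member share of control and cKO UMIs was 0.933% and 0.858% at a minimum of 2000 UMIs, 0.972% and 0.905% at 5000, 0.944% and 0.877% with at most 10% mitochondrial UMIs and 500 genes, and 0.933% in the control without Scrublet doublets. The log2 ratio of late over round spermatids (0.87 in the control, 0.76 in the cKO) was 0.85 and 0.75 at 2000 UMIs, 0.82 and 0.70 with no gate margin, 0.90 and 0.80 with a margin of 0.5, 0.73 and 0.62 with stages from clusters, 1.20 and 0.97 with free RNA subtracted, and in the control 0.86 at 5000 UMIs and 0.88 without doublets. These shifts are judged against counting error, since no replicate spread exists.

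The 5 members lower past 1.5-fold in late spermatocytes were 4 without Scrublet doublets and 4 when scaled by the median ratio over genes, where Dnah8 was at -0.59, close to the threshold, and 5 under the other filters and gates. Past 2-fold, 0 members and 0.868% of all genes were lower in late spermatocytes. The median member had a UMI in 26.3% of control and 20.5% of cKO late spermatocytes after thinning, and in 76.3% and 69.1% without it. The pair of hexamers was in 1.92% of member promoters.

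For the promoters, leaving out 1 library gave differences of -29.8 to -5.77 points in ATAC and -6.41 to 1.28 in H3K27me3, the latter reversed at 1.28 without control 2. The cause was not tested. With the replicate number as a block over numbers 1 and 2, the differences were -29.8 and -4.81 points. These numbers are not stated to pair animals. No paired analysis was possible for the single cells because each genotype has 1 library. That single library limits every comparison between genotypes, and low members are limited by depth and free RNA.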
